A study of Mus musculus with 4 samples.

Results

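The B cell identity genes are the 9 genes Ms4a1, Cd79a, Cd79b, Pax5, Cr2, Fcer2a, Cd22, Blnk and Ebf1, chosen by name as genes that mark B cells. All 9 had a probe on the array, among 20659 genes with a named probe, and 11 of the 39429 probes belong to them. The RNA was that of lymphocytes from the lamina propria, the connective tissue beneath the gut epithelium, taken from C57BL6 mice on day 10. All 4 groups had received dextran sulfate sodium (DSS), which injures the colon lining and causes colitis. They were wild type mice given DSS, wild type mice given DSS and leukemia inhibitory factor (LIF, a secreted cytokine related to interleukin-6), Stat4-/- mice given DSS, and Stat4-/- mice given DSS and LIF. Each group had 1 one-colour array and used 5 mice. Whether RNA was pooled over the 5 mice is not stated in the labels, nor are the dose of LIF, the Stat4 allele or any sort of the cells. Since every mouse received DSS, arrays without LIF are called DSS-only and the others LIF-treated. With 1 array per group no difference below has a replicate check or a p-value.

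B cells recognise antigen through the B cell receptor, a membrane immunoglobulin held by the signalling proteins that Cd79a and Cd79b encode. Blnk couples this receptor to the calcium and kinase cascades inside the cell, while Cd22 dampens its signal and the complement receptor Cr2 strengthens it. Ebf1 and Pax5 are the transcription factors that switch on and then hold the B cell programme. In the gut, B cells sit in Peyer's patches and isolated lymphoid follicles, and their plasma cell descendants in the lamina propria secrete IgA. Plasma cells lose several of these markers, Ms4a1 and Pax5 among them. In bulk RNA, fewer B cells and less RNA of a gene per B cell cannot be told apart.

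In these arrays Cd79b, Cd22 and Fcer2a were about 2-fold higher in Stat4-/- than in wild type mice given DSS alone, and the same genes were lower with LIF in Stat4-/- mice. Both differences use the same array of DSS-only Stat4-/- mice. In the first, 13.2% of all measured genes were at least 2-fold higher. With other background corrections 0 or 1 of the members stayed at least 2-fold higher, beside 3.12% and 11.2% of all measured genes. In wild type mice given LIF the members split, with Cr2, Blnk and Cd22 higher and Ms4a1 lower than with DSS alone. That comparison uses an array that stood apart from the others, and 34.4% of all measured genes were at least 2-fold higher in it. The members' median log2 difference there, 0.35, was below the 0.57 of all genes.

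Values are log2 levels, which are log2 processed signals minus the log2 75th percentile of the array's non-control spots. A level of 0 is thus a signal equal to that percentile, and a step of 1 is a doubling. Levels were compared between arrays for 1 probe at a time, since different probes capture RNA with different efficiency. The only measures of error within the files are the error that the scanning software assigns to each signal and the scatter of replicate spots. The software error of the members' differences between arrays ran from 0.204 to 0.420 log2, with a median of 0.209. The median standard deviation over replicate spots of a probe was between 0.0988 and 0.103. Neither covers the variation between mice, hybridizations or arrays.

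The arrays differed in brightness, and the array of LIF-treated wild type mice stood apart. The 75th percentile of the signal was 122.9 in DSS-only and 23.8 in LIF-treated wild type. It was 45.3 in DSS-only and 43.3 in LIF-treated Stat4-/- mice. Between 37.6% and 61.7% of the probes were well above background, with the lowest share on that array and the highest in DSS-only wild type. Its log2 levels correlated with the other 3 arrays at a Pearson r of 0.800 to 0.818, whereas the other 3 correlated with each other at 0.951 to 0.980, over the 12674 probes that every array read well above background. The 2 arrays of mice given DSS alone were read in the same scan, and each array of mice given LIF was read in a scan of its own. LIF and scan therefore cannot be told apart. The Stat4 probe did not separate the genotypes. Its log2 level was -0.49 in DSS-only and 0.21 in LIF-treated wild type mice, and 0.31 in DSS-only and -0.48 in LIF-treated Stat4-/- mice. No label states whether the probe lies within the deleted part, so the Stat4-/- arrays are called "labelled knockout" below.

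Of the 9 members, 7 were well above background on all 4 arrays, Cd79a was on the 2 arrays of mice given DSS alone, and Ebf1 was on no array. Ms4a1 encodes CD20, a surface protein found from the pre-B cell to the memory B cell. Its log2 level was 1.99 in DSS-only wild type, 1.33 in LIF-treated wild type, 2.31 in the DSS-only labelled knockout and 1.66 in the LIF-treated labelled knockout. The array of the DSS-only labelled knockout was the highest, and within each genotype the array with LIF was the lower one, with a difference of -0.65 in both.

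The signalling subunits of the B cell receptor were likewise brightest in the DSS-only labelled knockout. Cd79b stood at a log2 level of 1.01 in DSS-only wild type, 0.77 in LIF-treated wild type, 2.23 in the DSS-only labelled knockout and 1.21 in the LIF-treated labelled knockout. The knockout array with DSS alone thus lay apart from the other 3. Cd79a was dim, at a log2 level of -2.27 in DSS-only wild type and -1.36 in the DSS-only labelled knockout, and its values of -2.10 and -2.17 on the wild type and knockout arrays with LIF were not well above background. Such dim values give only a bound on the LIF arrays.

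Blnk and Cd22, the adaptor and the inhibitory receptor of the B cell receptor pathway, were highest on the array that stood apart. Blnk had a log2 level of 2.75 in DSS-only wild type, 4.28 in LIF-treated wild type, 2.85 in the DSS-only labelled knockout and 2.83 in the LIF-treated labelled knockout. Only the wild type array with LIF differed from the rest by more than the software error. Cd22 stood at 0.62 in DSS-only wild type, 1.93 in LIF-treated wild type, 1.65 in the DSS-only labelled knockout and 0.93 in the LIF-treated labelled knockout. DSS-only wild type was the lowest of its 4 arrays.

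The stretch just upstream of the start sites of Cd79a, Cd22 and Blnk is shown because these genes of 1 pathway differed in behaviour. Cd79a and Cd22 were higher in the DSS-only labelled knockout than in DSS-only wild type, and Blnk stood at nearly the same level on the 2 arrays. Sequences of the 250 bases before the annotated start come from RefSeq, build GRCm38.p6, which held promoters for 7 of the 9 members (all but Ms4a1 and Cd79b). They are given 5′ to 3′ on the gene's strand, and capitals mark a motif match. Cd79a lies on the plus strand (chr7:24897247-24897496), Cd22 on the minus strand (chr7:30879029-30879278) and Blnk on the minus strand (chr19:40994222-40994471).
Cd79a: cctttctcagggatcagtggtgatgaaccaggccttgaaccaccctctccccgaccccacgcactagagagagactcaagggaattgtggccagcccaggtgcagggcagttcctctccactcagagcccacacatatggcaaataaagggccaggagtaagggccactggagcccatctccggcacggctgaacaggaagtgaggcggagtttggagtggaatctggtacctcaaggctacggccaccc
Cd22: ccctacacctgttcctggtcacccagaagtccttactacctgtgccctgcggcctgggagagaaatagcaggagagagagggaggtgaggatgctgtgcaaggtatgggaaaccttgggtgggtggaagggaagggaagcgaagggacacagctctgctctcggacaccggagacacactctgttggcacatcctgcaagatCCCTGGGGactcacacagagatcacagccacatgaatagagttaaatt
Blnk: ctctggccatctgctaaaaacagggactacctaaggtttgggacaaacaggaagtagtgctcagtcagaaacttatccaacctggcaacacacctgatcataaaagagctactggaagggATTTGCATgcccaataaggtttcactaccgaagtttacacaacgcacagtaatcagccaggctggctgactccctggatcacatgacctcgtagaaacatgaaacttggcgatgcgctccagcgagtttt

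In all, 3 motifs of B cell factors were searched on both strands of the promoters of the 7 members, and their matches do not overlap. The EBF motif CCCNNGGG, a short form of the palindrome that Ebf1 binds, occurred in 1 member, Cd22, as CCCTGGGG starting 48 bases before the start. It occurred in 11.8% of the 32841 promoters in the table. The octamer ATGCAAAT, which Oct factors bind with the B cell coactivator Pou2af1, occurred in 1 member, Blnk, on the other strand as ATTTGCAT starting 130 bases before the start. Its share over all promoters was 1.60%. The PU.1 motif GAGGAAGT occurred in 0 members and in 2.44% of all promoters. A match is a string of letters and not evidence of binding, and 1 match among 7 members is a count too small to set against these shares. Only exact matches were marked, so a promoter without one, such as that of Cd79a, may still hold a binding site with other letters.

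Cr2, the complement receptor that marks follicular and marginal zone B cells and is also carried by follicular dendritic cells, was measured by 2 probes. The brighter probe gave log2 levels of 1.12 in DSS-only wild type, 2.72 in LIF-treated wild type, 1.07 in the DSS-only labelled knockout and 0.62 in the LIF-treated labelled knockout. The second probe gave 1.44, 2.22, 0.72 and 0.49 in the same order. Both probes placed LIF-treated wild type highest and the LIF-treated labelled knockout lowest. They disagreed on the 2 arrays of DSS alone, where the brighter probe showed a knockout minus wild type difference of -0.06 and the second one of -0.73.

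Fcer2a encodes CD23, the low-affinity IgE receptor of follicular B cells. Its log2 level was -0.37 in DSS-only wild type, -0.30 in LIF-treated wild type, 0.66 in the DSS-only labelled knockout and -0.31 in the LIF-treated labelled knockout. The last value lay within the software error of both wild type values, and only the knockout array with DSS alone was set apart.

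The 2 transcription factors of the group were dim. Pax5 was read by 2 probes, of which 1 was not well above background on any array. The other gave log2 levels of -1.68 in DSS-only wild type, -1.33 in LIF-treated wild type, -1.04 in the DSS-only labelled knockout and -1.69 in the LIF-treated labelled knockout. Its level in LIF-treated wild type had the highest software error of any measured member, 0.309 log2, and the LIF difference in wild type was no larger than its own error (0.35 for each). Ebf1 lay between -4.21 and -3.61 on the 4 arrays, below the mark for well above background on each, so no order can be read from it.

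**Figure D1:**
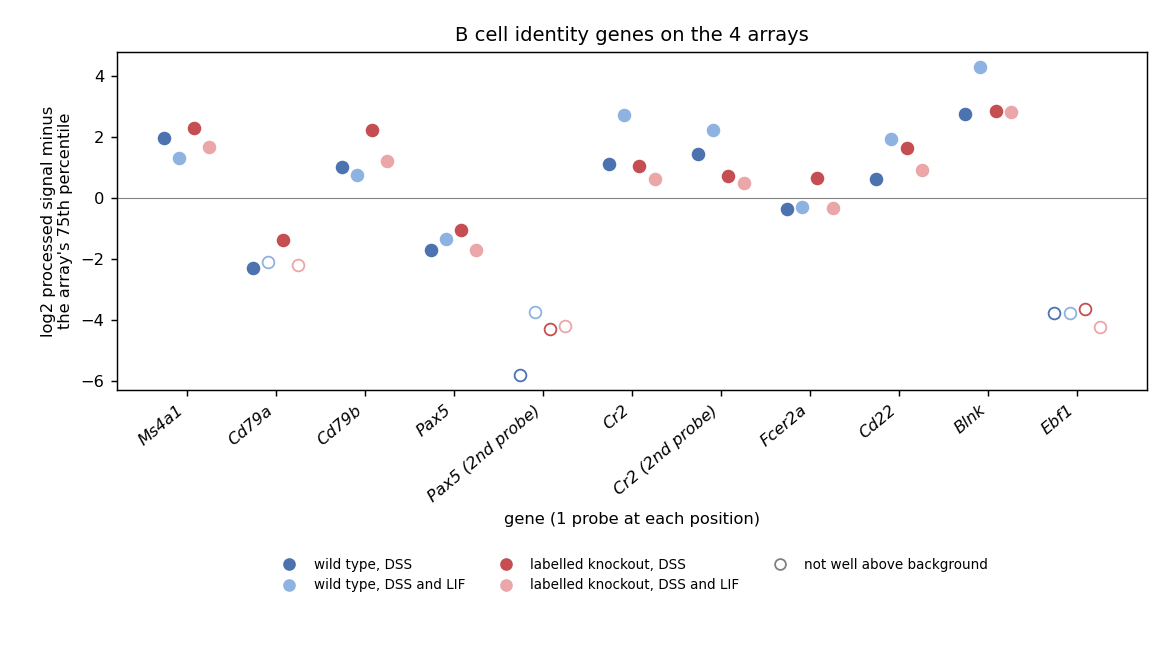
Log2 level (y axis, log2 processed signal minus the log2 75th percentile of the array) of each probe of the 9 members (x axis), 1 point per array, with open points where the probe was not well above background. Levels are comparable within a probe and not between probes; the DSS-only labelled knockout is highest for Ms4a1, Cd79b and Fcer2a, and LIF-treated wild type is highest for Cr2, Cd22 and Blnk.

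Over the 7 members measured on all 4 arrays, the highest level was in the DSS-only labelled knockout for 4 (Ms4a1, Cd79b, Pax5 and Fcer2a) and in LIF-treated wild type for 3 (Cr2, Cd22 and Blnk). Among all 8039 genes measured on all 4 arrays, these shares were 17.5% and 53.6%. Without the array of LIF-treated wild type, 6 of the 7 members were highest in the DSS-only labelled knockout, against 35.3% of all genes. The exception was Cr2, which was then highest in DSS-only wild type by 0.06 log2 over the DSS-only labelled knockout. Its second probe showed a wider gap, with levels of 1.44 and 0.72. Blnk counted among the 6 by a margin below its software error, at 2.85 in the DSS-only and 2.83 in the LIF-treated labelled knockout.

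The first comparison asks how the labelled knockout differed from wild type when both had received DSS alone, on 2 arrays of the same scan. Here 7 of the 8 measured members were higher in the knockout, and 3 were at least 2-fold higher. Cd79b was 2.32-fold higher, a log2 difference of 1.21. Cd22 was 2.04-fold higher (1.03) and Fcer2a 2.03-fold higher (1.02), so both sat just past the 2-fold mark. Cd79a followed at 1.88-fold (0.91). Pax5 was 0.64, Ms4a1 0.33 and Blnk 0.10 higher on the log2 scale, and the Blnk value is below its software error of 0.204. Cr2, the 1 member on the lower side, stood at -0.06, and at -0.73 for its second probe. No member was at least 2-fold lower. These differences rest on the scaling to each array's 75th percentile, which was 45.3 in the knockout and 122.9 in wild type. Unscaled, the signals of Cd79b, Cd22 and Fcer2a were 212, 142 and 71.3 in the knockout. In wild type they were 248, 188 and 95.3.

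Among the 10529 genes measured here, 13.2% reached 2-fold on the higher side and 6.94% on the lower side. The members' median log2 difference was 0.77, beside 0.07 for all genes. Cd79b lay at the 90.6th percentile of all measured genes, Cd22 at the 87.4th, Fcer2a at the 87.3rd and Ms4a1 at the 63.5th. The count of 3 rests on the background correction. With normexp and an offset of 50 in place of the software's own subtraction, 0 members were at least 2-fold higher, the median was 0.46, and Ms4a1 and Blnk stood at -0.13 and -0.42. With normexp and no offset 1 member was at least 2-fold higher. The shares of all genes at least 2-fold higher were then 3.12% with the offset and 11.2% without it.

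The second comparison asks what LIF treatment went with in the labelled knockout. All 7 measured members were lower with LIF, with a median difference of -0.65 log2, while the median of all 9781 measured genes was -0.01. Cd79b was 2.02-fold lower, a log2 difference of -1.01, and was the 1 member at least 2-fold lower. Fcer2a was 1.95-fold lower (-0.96), Cd22 1.65-fold lower (-0.72), Ms4a1 1.57-fold lower (-0.65) and Pax5 1.56-fold lower (-0.64). Cr2 was 1.37-fold lower (-0.45), with -0.22 for its second probe. The Blnk difference of -0.02 was well within its software error. Cd79a was not well above background with LIF, which gives at least 1.60-fold lower.

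Few genes differed much between these 2 arrays. The share of all measured genes that reached 2-fold was 3.22% on the higher and 3.07% on the lower side. The middle of the distribution was correspondingly narrow, from -0.61 at the 10th percentile to 0.64 at the 90th. Ms4a1, Cd79b, Pax5, Fcer2a and Cd22 lay below that 10th percentile. Cd79b was at the 2.95th percentile and Fcer2a at the 3.48th. The direction held for every member under all alternatives but that of Pax5, which was as high as 0.44 with normexp, and that of Blnk, which was 0.01 with quantile scaling. With normexp and no offset the members' median was -1.14 and 4 were at least 2-fold lower, but 24.2% of all genes were too, and the median of 8 housekeeping genes was -1.36 in place of 0.01.

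These 2 comparisons share the array of the DSS-only labelled knockout, so a high value on that array raises the first difference and lowers the second. Side by side, the differences of knockout against wild type and of LIF within the knockout were 1.21 and -1.01 for Cd79b, 1.02 and -0.96 for Fcer2a, and 1.03 and -0.72 for Cd22. Cr2 and Blnk had small values in the first of the comparisons, -0.06 and 0.10, but the second Cr2 probe gave -0.73 there.

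**Figure D2:**
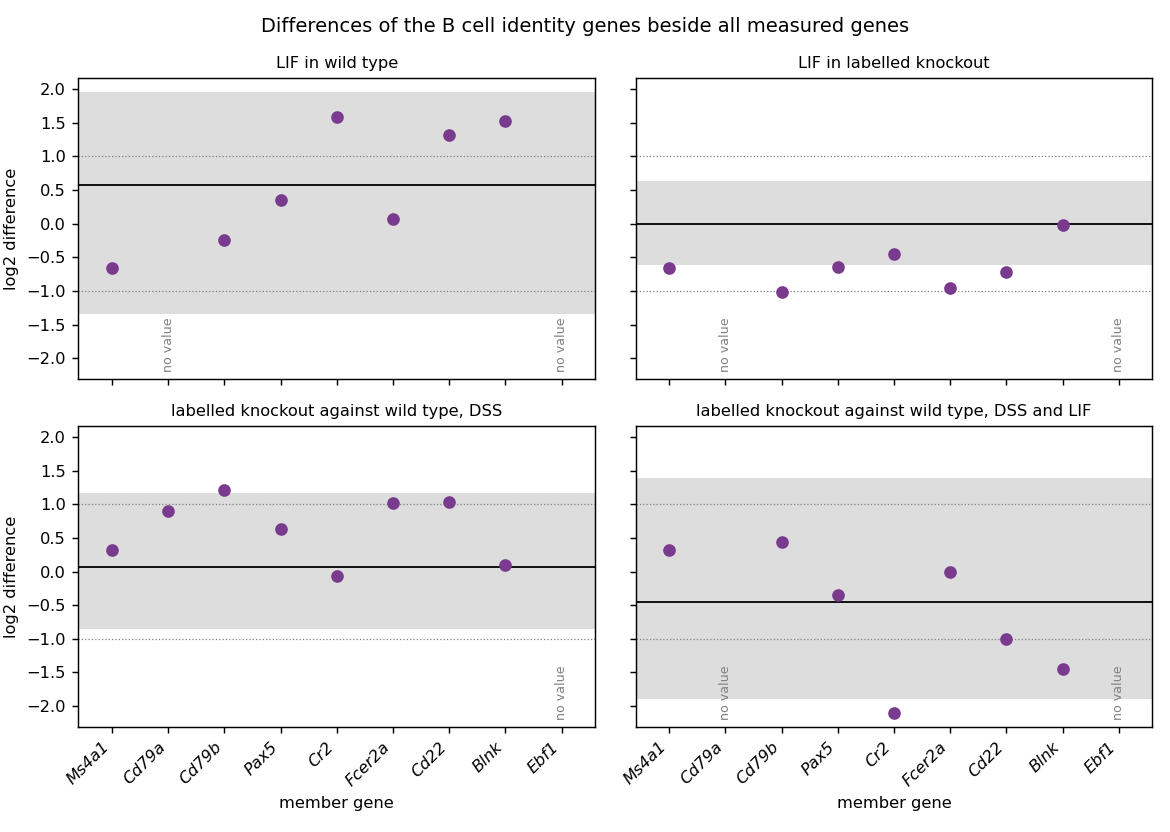
Log2 difference (y axis) of each measured member (x axis) in the 4 comparisons, 1 point per gene; the grey band spans the 10th to 90th percentile of all measured genes, the black line is their median, dotted lines mark 2-fold, and "no value" stands where a gene was not measured on both arrays. With LIF in the labelled knockout, 7 of 7 points lie below 0 and 5 of them below the band, while in wild type all 7 points lie within the band.

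The third comparison is that of LIF in wild type mice, and it uses the array that stood apart. Cr2 was 3.02-fold higher with LIF (1.59, and 0.77 for its second probe), Blnk 2.89-fold higher (1.53) and Cd22 2.49-fold higher (1.32). Pax5 stood at 0.35, Fcer2a at 0.07, Cd79b at -0.24 and Ms4a1 at -0.65, the last of these 1.57-fold lower. Fcer2a turned to -0.07 with median scaling over the commonly detected probes. So 3 of 7 measured members reached 2-fold on the higher side and 0 on the lower side. Over all 8983 measured genes 34.4% reached 2-fold on the higher side and 13.7% on the lower side, so the members' counts lie near the background. Their median of 0.35 was below the 0.57 of all genes. With normexp and an offset of 50, 0 members reached 2-fold on the higher side and 1, Ms4a1, did on the lower side. Over all genes the shares were then 8.85% and 17.1%.

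The fourth comparison, of the labelled knockout against wild type when both had received LIF, uses the same array. Cr2 was 4.29-fold lower in the knockout (-2.10, and -1.73 for its second probe), Blnk 2.73-fold lower (-1.45) and Cd22 2.01-fold lower (-1.01). Pax5 was at -0.35 and Fcer2a at -0.01, whereas Cd79b stood at 0.44 and Ms4a1 at 0.33. These 4 signs were not stable, since normexp without an offset turned Cd79b to -0.12 and Ms4a1 to -0.35, normexp turned Pax5 to as high as 0.50, and median scaling turned Fcer2a to 0.13. The 3 lower members of 7, with 0 at least 2-fold higher, compare with 31.3% lower and 14.2% higher among all 8348 measured genes. The count of 3 rests on Cd22, which lay just past the 2-fold line. It was 2 with normexp at offset 50, quantile scaling, median scaling and the authors' table, where Cd22 stood between -0.92 and -0.58. In that order, 14.4%, 30.5%, 27.2% and 32.7% of all genes were at least 2-fold lower. The medians were -0.35 for the members and -0.45 for all genes, so the members' median lay close to that of all genes. Cd79a and Ebf1 were below background on both arrays.

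The difference between the 2 LIF differences, the knockout's minus that of wild type, had a median of -1.03 over the 7 members and of -0.53 over 8039 genes. Ms4a1 had the same LIF difference in the 2 genotypes, with 0.00 between them. Cr2 and Cd22 had the largest gaps, at -2.04 each. Opposite signs in the 2 genotypes occurred for 5 of 7 members and for 53.5% of all genes, and none of this was tested.

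Other genes of the B cell pathway were read from lists made with earlier results of these data known. Among 12 other B cell surface receptors, 11 were measured on both DSS-only arrays, with a median knockout minus wild type difference of 0.63 (0.12 to 0.66 over the alternatives). At least 2-fold higher were 3, and 0 were lower by that much, against 13.2% and 6.94% of all genes. The higher ones included Siglecg, an inhibitory lectin (1.57) and Fcmr, the Fc receptor for IgM (1.12). With LIF in the labelled knockout 9 of 11 were below 0, with a median of -0.53, and Cd72, another inhibitory receptor, was 2.29-fold lower (-1.20). Fcmr stood at -0.90 there. Cd37, a tetraspanin, stood at 0.85, but at as low as -0.42 with normexp.

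In wild type the receptor Fcmr had a LIF difference on the same side as Cr2 and Cd22. It was 3.11 log2, and as low as 1.49 over the alternatives. Of 9 measured receptors 2 were at least 2-fold higher, against 34.4% of all genes, and the list's median of 0.29 was below the 0.57 of all genes. Between the 2 arrays with LIF, Fcmr was 7.39-fold lower in the labelled knockout (-2.89), with a range over the alternatives from -3.02 to -0.93.

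The 13 genes of B cell receptor signalling gave a similar pair of medians. With DSS alone the median of 10 measured genes was 0.65, and 4 of them reached 2-fold on the higher side in the labelled knockout and 0 on the lower side. Over all genes these shares were 13.2% and 6.94%. The list's median was 0.28 to 0.67 over the alternatives. The 4 higher genes were Syk, the kinase next to the receptor (1.58), the adaptor Dapp1 (1.40), the kinase Btk (1.17) and the scaffold Bank1 (1.07). With LIF in the labelled knockout 8 of 10 were below 0 and the median was -0.48. Syk stood at -0.90 and Bank1 at -0.83 in that comparison. Syk and Btk are also used by other blood cells.

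The 13 transcription factors of the B lineage were divided. Between the genotypes with DSS alone 2 of 10 were at least 2-fold higher in the labelled knockout, against 13.2% of all genes. The list's median was -0.11. The higher ones were Pou2af1, the coactivator of Oct factors (1.23), and Spib, an Ets factor (1.06). The same genes stood lowest with LIF in the labelled knockout, at -1.32 and -0.88, where the list's median was -0.10. With LIF in wild type 1 of 9 was at least 2-fold higher and 3 were at least 2-fold lower, against 34.4% and 13.7% of all genes. The list's median was 0.03, beside 0.57 for all genes. The higher one was Bach2, a repressor of plasma cell fate, at 5.87-fold (2.55, and as low as 1.18 over the alternatives). The lower ones were Irf8 (-1.55), Ets1 (-1.37) and Tcf3 (-1.32). With LIF in the labelled knockout Bach2 was at -0.10, where normexp turned it to as high as 0.18.

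Of 11 genes for B cell homing and survival 10 had a probe and 6 were measured in each comparison. With LIF in the labelled knockout 5 of 6 were below 0, the median was -0.47 and none was at least 2-fold lower. The chemokine receptor Ccr7 and the oxysterol receptor Gpr183 stood at -0.71 each, though Gpr183 was as high as 0.41 with normexp. Tnfrsf13c, the receptor for the survival factor BAFF, was 3.26-fold higher with LIF in wild type (1.70, and as low as 0.68 over the alternatives) and at -0.46 in the labelled knockout. Between the genotypes with DSS alone the list's median was 0.16, which normexp at offset 50 turned to -0.05. Of its genes 0 of 6 were at least 2-fold higher or lower, against 13.2% and 6.94% of all genes. There 4 of 6 were above 0, among them Ccr7 (0.97), whereas Gpr183 (-0.53) and the chemokine receptor Ccr6 (-0.42) were below it. Cxcl13, the stromal chemokine that draws B cells into follicles, was well above background only in the DSS-only labelled knockout. It was at least 7.74-fold higher there than in DSS-only wild type, and at least 2.31-fold lower with LIF in the labelled knockout.

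**Figure D3:**
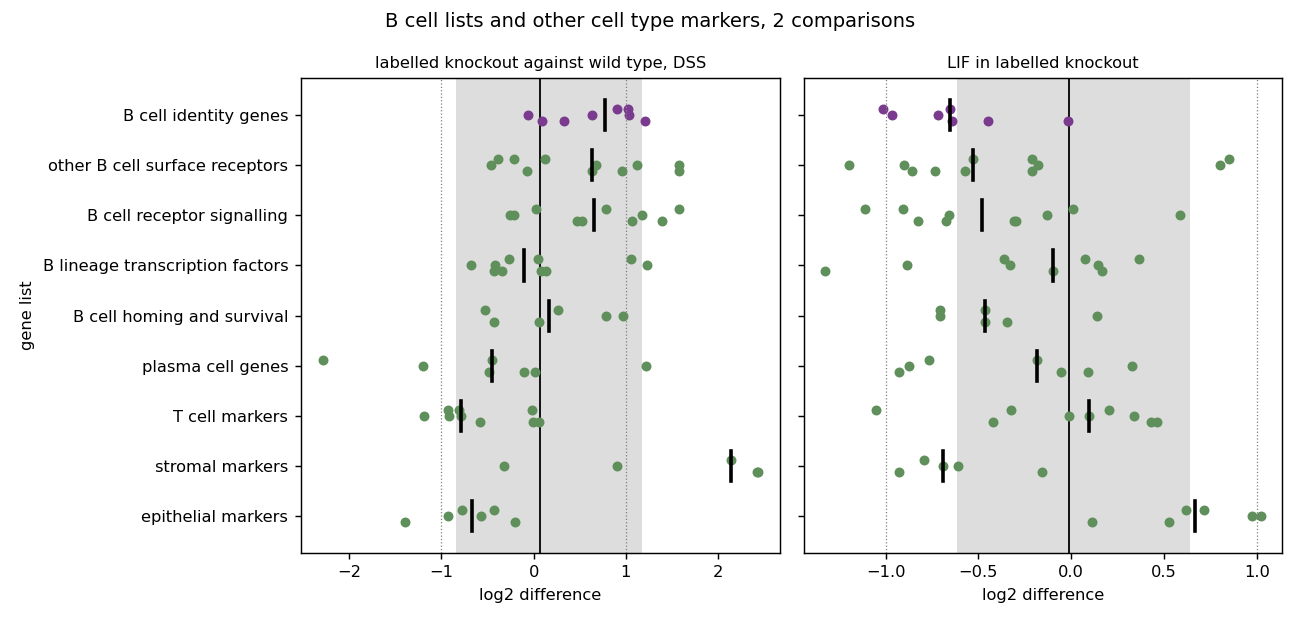
Log2 difference (x axis) of the measured genes of each list (y axis, 1 point per gene) for the labelled knockout against wild type, both DSS-only, and for LIF in the labelled knockout; short bars are list medians, the grey band spans the 10th to 90th percentile of all measured genes and the black line is their median. The B cell identity genes have medians of 0.77 and -0.65. The receptor and signalling lists and the stromal markers (2.14 and -0.69) lie on the same sides, and the plasma cell genes have -0.45 and -0.19.

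Genes of other stages of the B lineage were taken from 3 further lists. Of 7 early B cell genes the recombinase genes Rag1 and Rag2 and the surrogate light chain genes Vpreb1 and Igll1 were below background on all 4 arrays. The 3 measured ones were all below 0 with LIF in the labelled knockout, with a median of -0.25 that became 0.12 with no background filter. There Dntt, the template-free polymerase of V(D)J joining, was at -0.34, Vpreb3 at -0.25 and Il7r, the interleukin 7 receptor, at -0.06. With DSS alone they were below 0 in the labelled knockout as well, with a median of -0.05. Il7r is also expressed by T cells and innate lymphoid cells.

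Of the 9 plasma cell genes 7 were measured. With LIF in the labelled knockout 5 of 7 were below 0 and the median was -0.19, with Mzb1, a chaperone of antibody assembly, at -0.93 and Derl3, of the endoplasmic reticulum, at -0.88. Tnfrsf17, the plasma cell survival receptor BCMA, was at -0.77, though as high as 0.25 with normexp. None of the 7 was at least 2-fold lower. Between the genotypes with DSS alone 1 of 7 was at least 2-fold higher in the labelled knockout, 2 were at least 2-fold lower, and the median was -0.45. Over all genes these shares were 13.2% higher and 6.94% lower. The higher one was Derl3, 2.33-fold (1.22, and as low as 0.63 over the alternatives). The lower ones were Tnfrsf17, 4.89-fold, and Prdm1, the plasma cell regulator Blimp-1, 2.30-fold. Derl3 was thus above 0 between the genotypes and below 0 with LIF, as the members' medians were, whereas the plasma cell list's median was below 0 in both comparisons.

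Of 7 germinal centre genes 3 were measured, namely the repressor Bcl6, the death receptor Fas and Gcsam. Their median with LIF in the labelled knockout was 0.29, though as low as -0.11 with normexp. Between the genotypes with DSS alone it was -0.24, and 0.12 with normexp at offset 50. In both comparisons 0 of 3 were at least 2-fold higher or lower.

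Markers of other cells also differed between the arrays. The summed level below is the sum over a list of signals divided by the array's 75th percentile, in the order DSS-only wild type, LIF-treated wild type, DSS-only labelled knockout, LIF-treated labelled knockout. This sum follows the brightest probes, which were that of Blnk among the members and those of S100a8 and S100a9 among the neutrophil markers. Blnk stood at a log2 level of 4.28 in LIF-treated wild type, where Ms4a1 and Cd79b were lower than in DSS-only wild type. The summed level was 17.8, 35.6, 24.6 and 17.4 for the 9 B cell identity genes, of which 8, 7, 8 and 7 were well above background. For 10 T cell markers it was 33.9, 62.9, 21.6 and 21.0, with 9 or 10 well above background on each array. For stromal markers, 5 of 6 of which were well above background on every array (Pdgfra was on none), it was 3.73, 3.62, 13.4 and 8.31. For 8 neutrophil markers, 7 with a probe and between 2 and 5 well above background, it was 350.3, 270.6, 2387 and 1848, and the neutrophil receptor Cxcr2 was on no array above background. For 6 epithelial markers, all well above background on every array, it was 20.1, 27.6, 12.4 and 19.9. For 8 macrophage markers, 7 with a probe and between 3 and 6 well above background, it was 20.4, 19.8, 19.7 and 23.0. For 7 genes of follicular dendritic cells and follicle stroma, 5 with a probe and between 2 and 4 well above background, it was 3.81, 4.64, 5.46 and 5.95. The T cell markers were thus lowest in both knockout arrays, and the stromal and neutrophil markers highest. The part of these cells in the members' differences was not tested.

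The measured T cell markers had a median of -0.79 between the genotypes with DSS alone, against 0.77 for the members. With LIF in the labelled knockout their median was 0.10, against -0.65 for the members. The 5 measured neutrophil markers had a median of 0.04 there. Both medians turned with normexp, to as low as -0.50 for T cell and -1.24 for neutrophil markers. The 5 measured stromal markers were all below 0 with LIF in the labelled knockout, with a median of -0.69. Between the genotypes with DSS alone their median was 2.14, and 3 were at least 2-fold higher. All 4 neutrophil markers measured there were at least 2-fold higher, with a median of 3.48. Over all genes the share was 13.2%. Macrophage and epithelial markers had medians of 0.04 and -0.67 there. The stromal medians thus lay on the same sides as the members', and the cause was not tested.

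The genes whose profile was most like the members' were found by the distance to the members' mean profile, over the 4 arrays and 7719 other genes. The mean profile, as log2 level minus a gene's own mean, was -0.29 in DSS-only wild type, 0.28 in LIF-treated wild type, 0.32 in the DSS-only labelled knockout and -0.31 in the LIF-treated labelled knockout. The nearest genes were Rpl37, Btg1, Atxn7l1, Lmnb2, Zfp648, Gadd45g, Cirbp and Ppp2r2a, at root mean square distances of 0.00924 to 0.0586 log2, beside a median of 0.527 over all genes. The members themselves lay farther away, from 0.102 for Pax5 to 0.658 for Cr2. All 8 named genes were thus nearer to the mean profile than any member was. Without the array of LIF-treated wild type, 3 of these 8 were among the 8 nearest (Atxn7l1, Rpl37 and Btg1), and the members' distances ran from 0.0123 to 0.281.

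**Figure D4:**
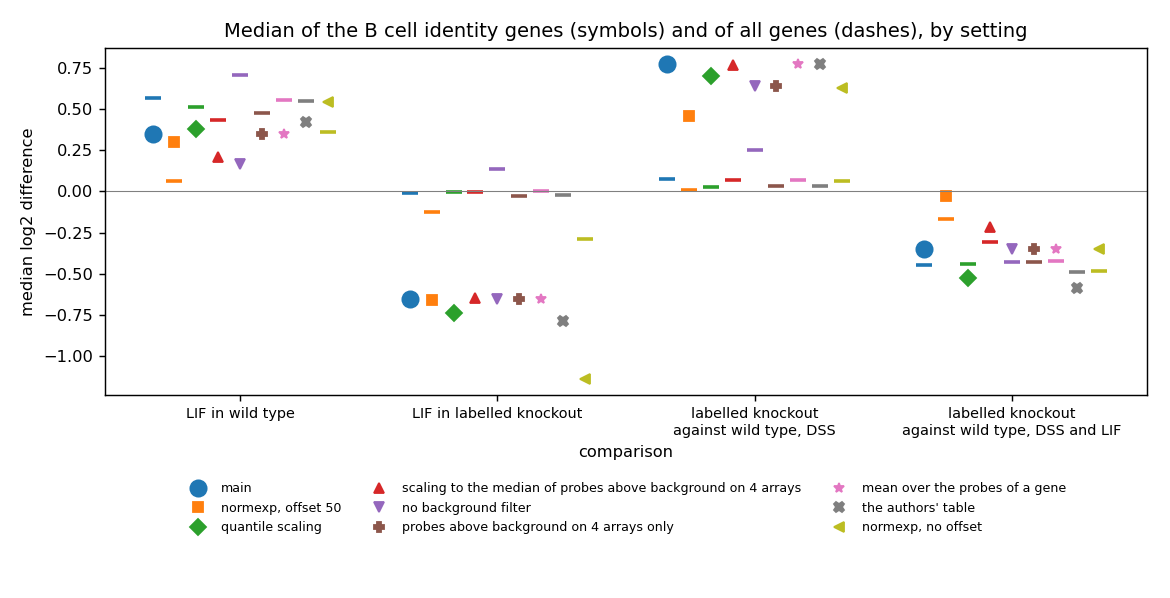
Median log2 difference (y axis) over the measured members (symbols) and over all measured genes (dashes) in the 4 comparisons (x axis), 1 colour per way of processing. The members' median is above that of all genes for the labelled knockout against wild type, both DSS-only (0.46 to 0.78) and below it for LIF in the labelled knockout (-1.14 to -0.65) in each of the 9 ways shown; in the other 2 comparisons its side depends on the setting.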

How the data were processed

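The intensity values were deposited as scanner output of 4 one-colour Agilent arrays. Per the file headers the authors used Agilent Feature Extraction 11.0.1.1 (9.1 per the submitters' processing notes), whose processed signal is background-subtracted. The authors also deposited a table of log2 values of the same arrays, with column medians of 3.31, 2.54, 3.31 and 3.31. Its correlation with the scanner values was 0.971 to 0.992, so higher is brighter. No source used here states its normalization or floor, and it served as an alternative.

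Spots marked as outliers (164 to 241 of 43020 per array) were left out and 0 probes were saturated. The software's mark for a spot well above background had to be set on 50% or more of a probe's spots. Through RefSeq accessions 27234 of 39429 probes (69.1%) were named. A gene took its probe with the highest mean level, and a comparison measured it if both arrays carried the mark for that probe. Where it was so on 1 array, an "at least" fold sets the bright level against the higher of the dim probe's level and the lowest level well above background on the dim array. Genes were counted at a log2 difference of at least 1, and no p-value was computed.

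Named genes were all members, up to 4 per list and comparison with the largest measured differences, list genes below background throughout, the 8 nearest in profile, and Stat4. Exceptions, named after their values were seen, are Cxcl13 and, with LIF in the labelled knockout, Bach2. Some list genes that this rule would name are not reported here. The members and lists were chosen with earlier results of these data known. The arithmetic was checked on simulated data, with known differences added to a copy of the same array. This check does not cover variation between real arrays. Python 3.11.15, pandas 2.3.3, R 4.3.3 and limma 3.58.1 (normexp, on median signal and background because the files hold no mean signal) were used. Mock-treated mice were not analysed here.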

Additional observations from a re-analysis of the deposited data

Results flagged for a closer look

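For 5 members the LIF difference had opposite signs in the 2 genotypes. The LIF difference in the labelled knockout minus that in wild type was -2.04 log2 for Cr2, -2.04 for Cd22, -1.55 for Blnk, -1.03 for Fcer2a and -0.99 for Pax5. The difference was not tested, since each value comes from 4 arrays with 1 per group. For Blnk, Fcer2a and Pax5 1 of the 2 opposing values lay within its software error. These were -0.02 for Blnk in the labelled knockout, and 0.07 for Fcer2a and 0.35 for Pax5 in wild type. The Pax5 value in the labelled knockout also turned to as high as 0.44 with normexp. Opposite signs also occurred for 53.5% of all 8039 genes measured on all 4 arrays.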

How the results depend on the processing

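No paired analysis was possible because each group has 1 array, and leaving out a replicate was not possible for the same reason. Under 8 alternatives (normexp with and without an offset, quantile scaling, median scaling over the commonly detected probes, no background filter, commonly detected probes alone, the mean over a gene's probes, and the authors' table) no median of the members reversed. Normexp without an offset was chosen after seeing the data, and so was the profile comparison without 1 array.

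For LIF in wild type the members' median was 0.35, and 0.21 with median scaling, 0.17 with no background filter and 0.54 with normexp without offset. With normexp at offset 50 the counts at least 2-fold higher and lower were 0 and 1, beside 8.85% and 17.1% of all genes. All genes' median was then 0.06 in place of 0.57. For LIF in the labelled knockout the median of -0.65 became -0.79 in the authors' table and -1.14 with normexp without offset. The count at least 2-fold lower, 1, became 2 with quantile scaling and 2 in the authors' table, where 3.48% and 4.32% of all genes were. It became 4 with normexp without offset, where 24.2% of all genes were lower and their median was -0.29.

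For the labelled knockout against wild type with DSS, the median of 0.77 became 0.46 with normexp at offset 50, 0.64 with no background filter, 0.64 with commonly detected probes alone and 0.63 with normexp without offset. The count of 3 higher became 0 and 1 with normexp with and without the offset, beside 3.12% and 11.2% of all genes. For the same contrast with LIF, the median of -0.35 became -0.027 with normexp at offset 50, -0.53 with quantile scaling, -0.21 with median scaling and -0.59 in the authors' table. The cause of these shifts was not tested. Cd79a, Pax5 and Ebf1 are limited by their low signal over background.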
